A study of Caenorhabditis elegans with 12 samples.

Results

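The genes of the C. elegans X chromosome were followed by position in CUT&Tag libraries against H3K9me3, a histone mark associated with repressed chromatin. In CUT&Tag an antibody tethers a transposase to chromatin, and the DNA it cuts nearby is sequenced. The X genes taken were those whose annotated exons cover at least 300 bases, whose WormBase gene number is 7000 or more and whose first exon starts at least 200 kb from either end of the chromosome. These limits kept 2157 of 46760 counted genes. On X, 6001 genes were counted, of which 86 lay outside the span, 3071 within it were shorter, and 687 long enough genes were left out by their gene number. None of these limits used a count. Of the 2157 genes, 469 started in the left 4 Mb, the side that carries the pairing center, and 1688 in the rest. The annotation called 1874 of them protein coding, 106 pseudogenes, 95 ncRNAs, 29 lincRNAs, 6 antisense RNAs and 1 a snoRNA, and 46 were not matched.

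The libraries came from purified germline nuclei of day 1 adults grown at 20 °C, in 3 genotypes: N2 wild-type animals, hrde-1(tm1200) mutants of strain USC661 and hrde-2(qe20) mutants of strain FD53. Each genotype had 3 H3K9me3 libraries, described as biological triplicates, and 1 control library, labelled IgG and made, per the study's methods, without a primary antibody. Each mutant is a single strain, so the allele and anything else in which the strains differ cannot be told apart. Per the study's methods, the H3K9me3 antibody also bound trimethylated H3K27 and H4K20, so a level here may contain those marks, and H3K27me3 is abundant on the germline X. Counts over chromatin give no expression, so the germline label could not be checked against expressed marker genes.

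As background, the X chromosome of C. elegans is largely silent in the germline. The MES proteins maintain this state: MES-2, MES-3 and MES-6 form the complex that methylates H3K27, and MES-4 methylates H3K36 on germline-expressed genes, which are mostly autosomal. In meiosis each chromosome has a pairing center near an end, where a zinc finger protein holds the homologs together. On X this lies at the left end and is bound by HIM-8 at a short repeated motif. HRDE-1 is a nuclear Argonaute that carries small RNAs and directs H3K9me3 to its target genes, and HRDE-2 helps to determine which small RNAs HRDE-1 binds.

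The H3K9me3 libraries held 1470699 to 8719542 counts, with wild-type replicate 2 the shallowest, and the IgG libraries held 233980 in wild-type, 37617 in hrde-1 and 13950 in hrde-2. Ribosomal RNA genes took 14.1 to 26.1% of H3K9me3 counts and 25.2 to 37.7% of IgG counts. They were left out of the scaling of CPM and levels, but stayed among the counts that scaled the fits of single genes. Gene values are counts-per-million (CPM) of all counts on nuclear genes other than ribosomal RNA, and a level is CPM per kb of exon. The median X gene had 35 counts in wild-type replicate 2 and 144 to 200 in the other H3K9me3 libraries, but 4 counts or none in the IgG libraries. IgG was therefore read mainly over windows and parts of chromosomes, and for a few single genes with the counts given. No H3K9me3 replicates agreed within sampling noise over these genes (chi-square per degree of freedom 2.41 to 5.03).

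The sequence that marks the left side was taken first. Every 12-letter word of the X chromosome was counted on both strands, and those with at least 20 copies on X, at least 80% of them in the left 4 Mb, copies in at least 30 separate 1 kb bins and fewer copies on all autosomes than on X were kept. Of 89472 words with enough copies, 453 reached 80%, and 6 met every limit. The longest run of letters shared by all but 1 of the 6 was ACTGAC. The 1 word without it was left out here and from the places counted below. The following 5 are shown because they met limits set to find words repeated on the pairing center side and hold these letters, written in capitals.
Word 1: atgcACTGACca
Word 2: ACTGACcaaaat
Word 3: agcACTGACaaa
Word 4: cACTGACcaaat
Word 5: gcACTGACaaaa

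Word 1 had 60 copies on X, 56 of them (93.3%) in the left 4 Mb, against 12 on the 5 autosomes together. Word 2 had 40 of 45 X copies on the left, word 3 had 51 of 61, word 4 had 36 of 44, and word 5, the most frequent, had 92 of 114. Since these words overlap, they occupied 256 separate places on X, of which 213 (83.2%) lay in the left 4 Mb, a part that holds 22.6% of X bases. The places were unevenly spread on the left as well: 154 of 256 (60.2%) lay between 0.5 and 1.5 Mb. Beyond 4 Mb no window of 500 kb held more than 5, and 5 windows held none. The 6 letters alone are common, with 7042 copies on X of which 1938 are on the left. The words were chosen for their place, so their concentration is a description, and a match is not a binding site.

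Stretches of 200 bases that begin just before a copy of word 1 and hold no annotated exon were ranked by their copies of word 1. The first in rank, the leftmost if tied, lay at chrX:920798-920997 (WBcel235, plus strand), in an intron of pifk-1. This is a phosphatidylinositol 4-kinase gene on the minus strand and one of the 2157 genes. The stretch is shown because its 200 bases hold 6 of the words, 5 of them copies of word 1. Stretches rich in the other words alone were not searched. Capitals mark the words.
Stretch in pifk-1: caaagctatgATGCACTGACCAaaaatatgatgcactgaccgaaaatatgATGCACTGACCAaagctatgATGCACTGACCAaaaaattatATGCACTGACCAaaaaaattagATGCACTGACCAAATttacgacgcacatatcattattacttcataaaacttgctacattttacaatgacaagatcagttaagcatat

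Over its exons pifk-1 had 95, 155 and 91.8 CPM in the 3 wild-type H3K9me3 libraries, 80.4, 82.4 and 90.8 in hrde-1 and 119, 106 and 107 in hrde-2. All hrde-1 libraries were below all wild-type libraries, but the difference did not pass the test (log2 fold change −0.36 ± 0.14 SE, edgeR quasi-likelihood adjusted p = 0.282).

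**Figure D1:**
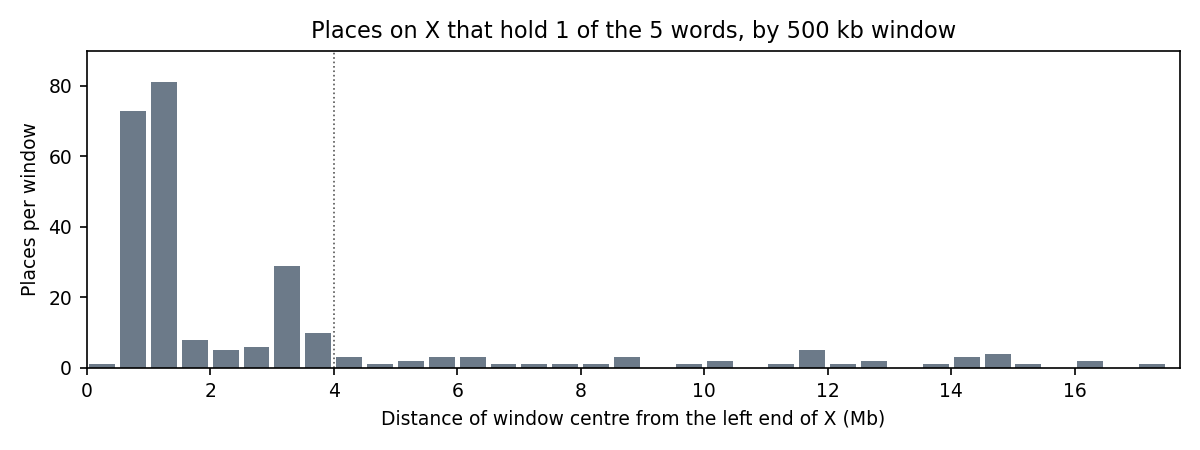
Places of the 5 words sharing ACTGAC in each 500 kb window along X (x axis, Mb from the left end; y axis, number of places). The 2 windows from 0.5 to 1.5 Mb hold 154 of 256 places, and no window beyond 4 Mb holds more than 5.

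In wild-type, the H3K9me3 level was higher toward both ends of the gene-bearing span than along its middle. The 35 windows of 500 kb had a mean level of 32.1 with a standard deviation of 5.85 between windows. The 22 windows from 4 to 15 Mb stayed within 25.7 to 31.8 (mean 29.0, SD 2.06). The 8 windows left of 4 Mb averaged 37.5 and ranged from 28.8 to 48.1, and the last 5 windows averaged 37.4 and ranged from 29.2 to 45.2. Elevated windows were therefore not confined to the pairing center side.

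The window from 1.5 to 2 Mb was the highest, with levels of 46.6, 45.1 and 52.4 in the 3 wild-type libraries, and the window from 1 to 1.5 Mb followed with 46.3, 47.6 and 43.5. These neighbours in rank overlapped between libraries. In the wild-type IgG library they were at 32.9 and 45, so for the window from 1 to 1.5 Mb the IgG level lay among the H3K9me3 levels. These windows differed in how the level was made up: the median gene was at 31.9 in the window from 1.5 to 2 Mb and at 38.2 in the window from 1 to 1.5 Mb. On the right, the window from 16.5 to 17 Mb was at 44.8, 45.6 and 45.1, and the window from 15 to 15.5 Mb at 42.1, 41.8 and 41.1. In the wild-type IgG library these right windows were at 33.1 and 43.7, so the window from 15 to 15.5 Mb was not above IgG. The lowest were the windows from 5.5 to 6 Mb, at 28.4, 24.7 and 24.1, and from 14 to 14.5 Mb, at 27.9, 26.3 and 24.9, and these also overlapped. Every library of the 2 lowest windows was below every library of the 4 high windows named here.

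Across the 35 windows the wild-type level correlated with the level in hrde-1 at r = 0.96 and in hrde-2 at r = 0.99, with the wild-type IgG level at r = 0.48, with the GC content of the exons at r = 0.53 and with the distance to the nearer chromosome end at r = −0.63. Its correlation with the number of word places was 0.40, and with the number of genes −0.18. These values are descriptions over n = 35 windows that share libraries and base composition.

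**Figure D2:**
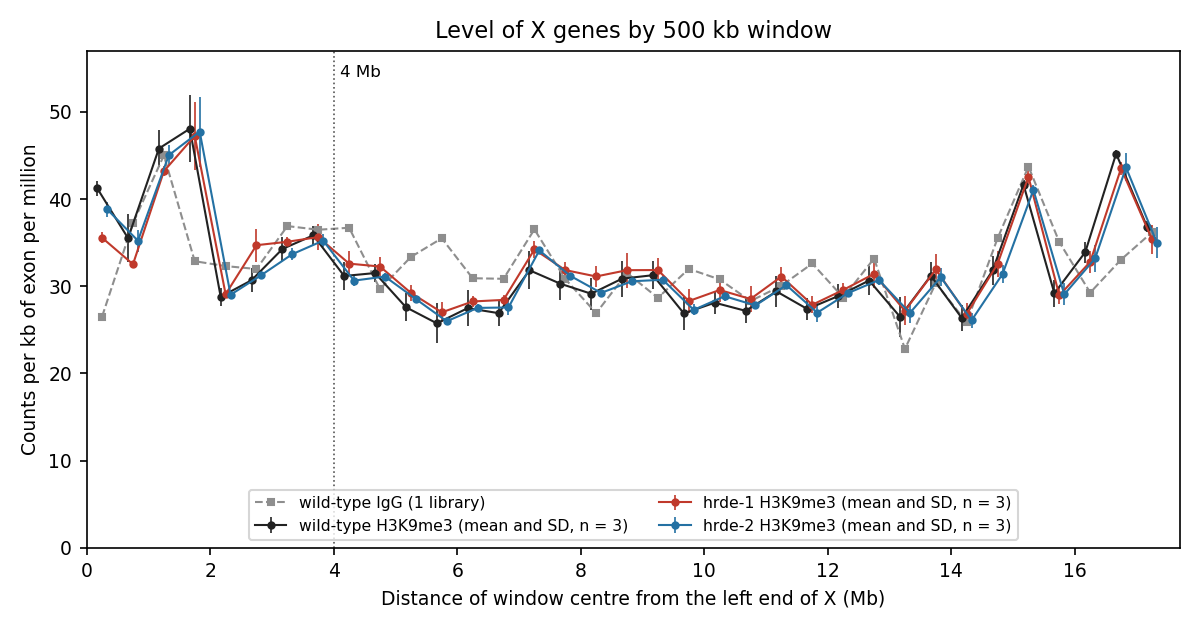
Level along X in 500 kb windows (x axis, Mb from the left end; y axis, counts per kb of exon scaled as CPM), as the mean and SD of 3 H3K9me3 libraries per genotype and as the single wild-type IgG library. Wild-type H3K9me3 windows between 4 and 15 Mb stay between 25.7 and 31.8, while windows on either side reach 48.1 and 45.2.

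Single genes stood far above their windows. The median X gene had a wild-type level of 28.1, with 5% of genes below 12.4 and 5% above 60.5. The highest on the left was WBGene00020828 at 474 ± 70.8 (SD, n = 3) CPM per kb, a protein-coding gene at 1836337 to 1837368, and its 435, 459 and 572 CPM in wild-type compared with 529, 533 and 572 in hrde-1 and 448, 487 and 554 in hrde-2. It was followed by C16B8.3 at 153, the pseudogene F47B7.6 at 120 and T13G4.7 at 100. In the rest of X the highest was WBGene00020085 at 413 ± 74.2, an unnamed gene at 17479842 to 17480309, followed by H03A11.2 at 214, the ncRNA R160.8 at 154 and K09E3.2 at 135. In the wild-type IgG library the left genes, in the order named, were at 281 (38 counts), 140 (11), 70.8 (6) and 23 (2, below the floor of 3 counts). Those in the rest were at 327 (20 counts), 168 (89), 225 (10) and 232 (10). R160.8 and K09E3.2 were thus higher in this IgG library than in H3K9me3, but had 0 counts in both mutant IgG libraries. The others were lower by differing amounts. Counting error is large at 11 counts or fewer, so the order of IgG and H3K9me3 is uncertain there. A high level at the genes named here is therefore not by itself a measure of the mark.

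The genes with the most counts in the 2 highest windows were acly-1, an ATP citrate lyase gene that supplies acetyl-CoA, in the window from 1 to 1.5 Mb (302, 303 and 319 CPM in wild-type) and K06A9.1 in the window from 1.5 to 2 Mb (636, 638 and 858 CPM). In the 2 lowest windows they were F49E10.2 (112, 79.9 and 95.6 CPM) and F16B12.6 (197, 169 and 199 CPM). None of these 12 genes passed the test against wild-type in either mutant. How reads that fit several places were counted is not given in the sources used here, so the levels of genes with near-identical copies are uncertain.

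The level on the left exceeded that on the rest of X in all 12 libraries. Summed over genes it was 37.4 ± 0.674 on the left and 30.4 ± 1.41 in the rest in wild-type (SD, n = 3), 36.6 ± 0.418 and 31.2 ± 1.14 in hrde-1, and 36.9 ± 0.683 and 30.4 ± 0.359 in hrde-2. The left genes hold 21.6% of the exon length and took 25.3% ± 0.560 of the wild-type counts. As the log2 ratio of left to rest, the wild-type libraries gave 0.26, 0.29 and 0.34, the hrde-1 libraries 0.22, 0.28 and 0.19, and the hrde-2 libraries 0.24, 0.28 and 0.32. The hrde-1 mean lay below wild-type by more than either group's SD, yet the groups overlapped (difference −0.07, exact two-sided permutation p = 0.2, adjusted 0.257 over 9 ratio tests). For hrde-2 the difference was −0.02 (exact permutation p = 0.6). With 3 libraries against 3 no such test can fall below 0.1.

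The IgG libraries leaned to the left as well. Their log2 ratios were 0.15, 0.06 and 0.34 for wild-type, hrde-1 and hrde-2, and the left share of X counts was 23.4% (95% Wilson interval 22.7 to 24.2), 22.3% (20.7 to 24) and 25.9% (23.2 to 28.7), intervals that cover counting error only. The H3K9me3 ratio was higher than the IgG ratio by 0.08, which was not past the threshold (exact permutation within genotypes, p = 0.09375, adjusted 0.225). The same difference was 0.11 (unadjusted exact permutation p = 0.015625) without the 10 genes of most counts on each side, but 0.03 (exact p = 0.672) with no limit on the gene number and 0.06 (exact p = 0.453) at an exon minimum of 1000 bases. Leaving out an IgG library gave 0.05 for wild-type, 0.04 for hrde-1 and 0.16 for hrde-2.

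**Figure D3:**
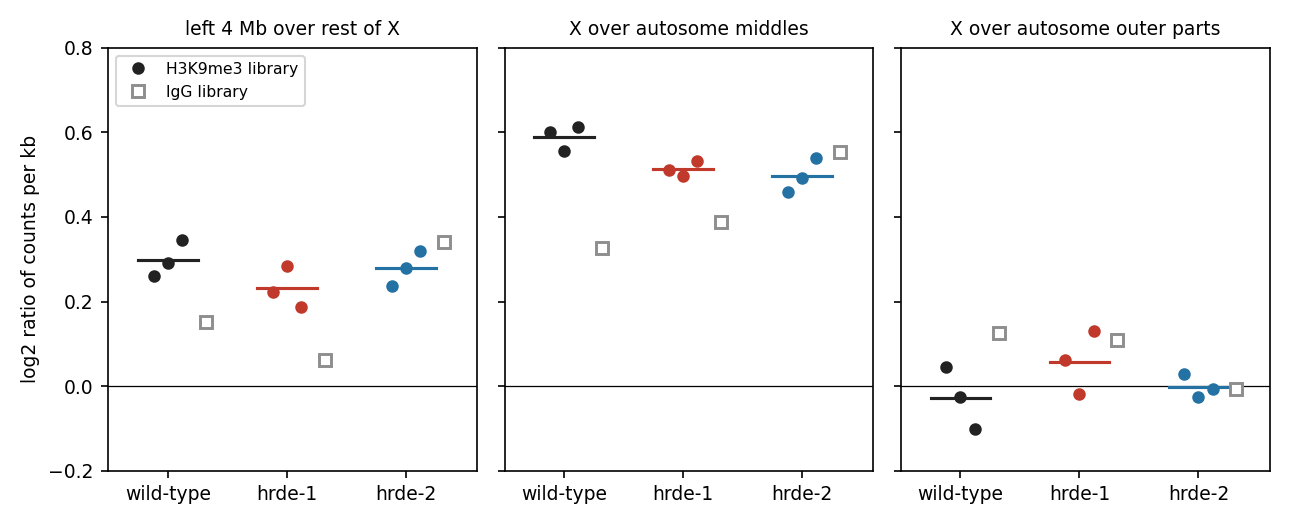
Log2 ratios of levels in each library: left 4 Mb over the rest of X, X over the middle parts of autosomes, and X over the outer parts, with filled points for H3K9me3 libraries, lines for their means and open squares for IgG libraries. H3K9me3 points for left over rest lie between 0.19 and 0.34. For X over autosome middles every mutant H3K9me3 point lies below every wild-type H3K9me3 point, while the mutant IgG squares lie above the wild-type square.

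The lean to the left was seen in protein-coding genes, whose median wild-type level was 31.8 on the left and 27.2 in the rest, and in pseudogenes (32.5 and 28.5). It was also seen in 29 lincRNAs, 9 of them on the left (24.6 and 18.8), and 6 antisense RNAs, only 2 of them on the left (26.8 and 8.22). Among ncRNAs the order was the opposite, with a median of 11.1 over 18 genes on the left and 29.9 in the rest, and the unmatched genes were at 27.5 and 29.6. These medians are descriptions of a single set of libraries.

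Autosomal genes were held to the same limits and split into the middle and the outer of 3 equal parts of each autosome, since autosome arms are rich in repeats and heterochromatin and the centers in germline-expressed genes. The X genes stood above the autosome middles and close to the outer parts. In wild-type the level was 31.9 ± 1.25 on X, 21.2 over 4985 genes of the middle parts and 32.5 over 8825 genes of the outer parts. Mean exon GC content, which also differs, was 41.1% on X, 39.2% in the middle parts and 41.6% in the outer parts, and its part in these levels was not tested.

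The excess over the middle parts was 1.51-fold in wild-type (log2 ratio 0.59 ± 0.03), 1.43-fold in hrde-1 (0.51 ± 0.02) and 1.41-fold in hrde-2 (0.50 ± 0.04). In both mutants every library lay below every wild-type library, with differences of −0.08 and −0.09. Both had an exact permutation p = 0.1, the smallest that 3 against 3 allows, and an adjusted p of 0.225, so neither passed. The middle parts themselves were at 22.7 in hrde-1 and 22.6 in hrde-2, against 21.2 in wild-type, while X was at 32.4 ± 0.930 and 31.8 ± 0.206. The same ratio was 0.42 ± 0.12 in the IgG libraries, with 0.33 in wild-type, 0.39 in hrde-1 and 0.55 in hrde-2. With 1 IgG library per genotype, the mutants thus stood above wild-type there, the reverse of the H3K9me3 order. That IgG order is uncertain, since the X genes had 12494 IgG counts in wild-type but 2463 in hrde-1 and 955 in hrde-2. H3K9me3 exceeded the IgG ratio by 0.11 (exact permutation p = 0.0625). This difference was 0.03 (exact permutation p = 0.5625) without the wild-type IgG library and 0.19 without that of hrde-2. Against the outer parts X gave −0.03 ± 0.07, 0.06 ± 0.07 and −0.00 ± 0.03 in the 3 genotypes, and no difference passed (exact permutation p = 0.2 for hrde-1 and 0.6 for hrde-2).

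Measured over IgG, 4 X windows were higher in H3K9me3 and 2 lower in an edgeR fit with genotype as a term. Over all 198 windows of the genome the background was 14.1% higher and 15.2% lower, so the X share was near or below it. Higher were the windows from 0 to 0.5 Mb (log2 fold change 0.54 ± 0.14 SE, edgeR adjusted p = 0.0114), 1.5 to 2 Mb (0.45), 16 to 16.5 Mb (0.29) and 16.5 to 17 Mb (0.32). Lower were those from 5 to 5.5 Mb (−0.19) and 5.5 to 6 Mb (−0.35). These calls rested on the wild-type IgG library, the deepest of the 3: without it none of the 6 windows passed, 2 other X windows did, and the value at 16.5 Mb was −0.07. The calls at 5 Mb (edgeR adjusted p = 0.0411) and 16 Mb (0.0415) held in 5 and 4 of 14 other settings. Those at 0, 5.5 and 16.5 Mb held in 13, and that at 1.5 Mb in 12. In the window from 0 to 0.5 Mb the IgG levels were 26.5 from 188 counts in wild-type (exact 95% Poisson interval 22.9 to 30.6), 24.5 from 34 counts in hrde-1 and 60.8 from 33 counts in hrde-2 (41.8 to 85.3), so the hrde-2 IgG library stood above the others.

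In hrde-1 mutants the level was lower at the left end of X. In edgeR fits of windows over the whole genome, 3 of 35 X windows fell and 1 rose, both smaller shares than the background of 15.7% lower and 11.1% higher over 198 windows. The 3 that fell were the leftmost 3. Along the rest of X the values were small: all 22 windows from 4 to 15 Mb were above 0 in hrde-1, from 0.01 to 0.08 on the log2 scale, but 13 of them were without wild-type replicate 3, 12 without hrde-1 replicate 3 and 20 without wild-type replicate 2. Of the last 5 windows 4 were below 0. None of these 27 passed the test. In hrde-2, 7 of the 22 were above 0, or 11 of 22 with total counts. With a library left out this ranged from 1 without wild-type replicate 3 to 14 without wild-type replicate 1. The window from 0 to 0.5 Mb, which holds 42 genes starting from 200 kb on, was at 42.2, 40.8 and 40.7 in wild-type, 35.1, 36.3 and 35.2 in hrde-1, and 39.5, 37.9 and 39.1 in hrde-2. The 3 groups did not overlap, with hrde-1 lowest and hrde-2 between. The log2 fold change in hrde-1 was −0.23 ± 0.03 SE (edgeR adjusted p = 0.000629), and 41 of the 42 genes were below 0, with a median of −0.23.

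The window from 0.5 to 1 Mb, where 73 word places lie, was at 36.1, 37.9 and 32.5 in wild-type and 32.6, 32.1 and 32.9 in hrde-1. It fell by 0.14 on the log2 scale (edgeR adjusted p = 0.0185) although a wild-type library lay among the mutants. The window from 1 to 1.5 Mb, with 81 places, was at 46.3, 47.6 and 43.5 in wild-type and 43.6, 42.5 and 43.4 in hrde-1, and fell by 0.10 (edgeR adjusted p = 0.0388). Both calls were lost in some settings: the first without wild-type replicate 2 or hrde-1 replicate 1 or 3, and the second without any of 5 libraries. The number of X windows called ranged from 1 without hrde-1 replicate 3 to 11 without wild-type replicate 1, of which 9 were higher. The fall from 0 to 0.5 Mb passed in every setting run.

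The left end was also cut into steps of 100 kb from 200 kb to 2 Mb. These steps hold the same genes and libraries as the windows above and were not among the planned tests. They describe the fall and are not separate support for it. In hrde-1, 15 of 18 steps were below wild-type, and 6 were below it with no overlap of libraries and none above it. Over 920 such steps of the genome with at least 8 genes, 40.3% were below wild-type in hrde-1, 13.6% lower and 18.6% higher with no overlap. The fall was largest in the outermost step, 200 to 300 kb, where the level was 47.9 ± 4.65 in wild-type and 37.4 ± 2.00 in hrde-1 and all 18 tested genes were below 0. In hrde-2 this step was at 40.5 ± 0.68, also without overlap with wild-type, and 15 of 18 genes were below 0. Over the 18 steps hrde-2 was below wild-type in 11, with no overlap in 1, and in 1 other it was higher with no overlap, 1900 to 2000 kb (31.0 ± 1.55 against 27.9 ± 2.33 in wild-type). The genome background in hrde-2 was 10% lower and 16.8% higher with no overlap.

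The X left end was not alone in this. Among 198 windows its first window ranked 13 from the lowest in hrde-1 and 24 in hrde-2. All 10 outermost windows of autosomes were below 0 in hrde-1, from −0.24 to −0.01 on the log2 scale. Of these, 3 passed the test, namely the left end of chromosome I (−0.24) and both ends of chromosome III (−0.19 and −0.14). In hrde-2 the 10 ranged from −0.15 to 0.02 and none passed. The right end of X gave −0.08 (edgeR adjusted p = 0.141) in hrde-1 and −0.10 (adjusted p = 0.0913) in hrde-2.

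**Figure D4:**
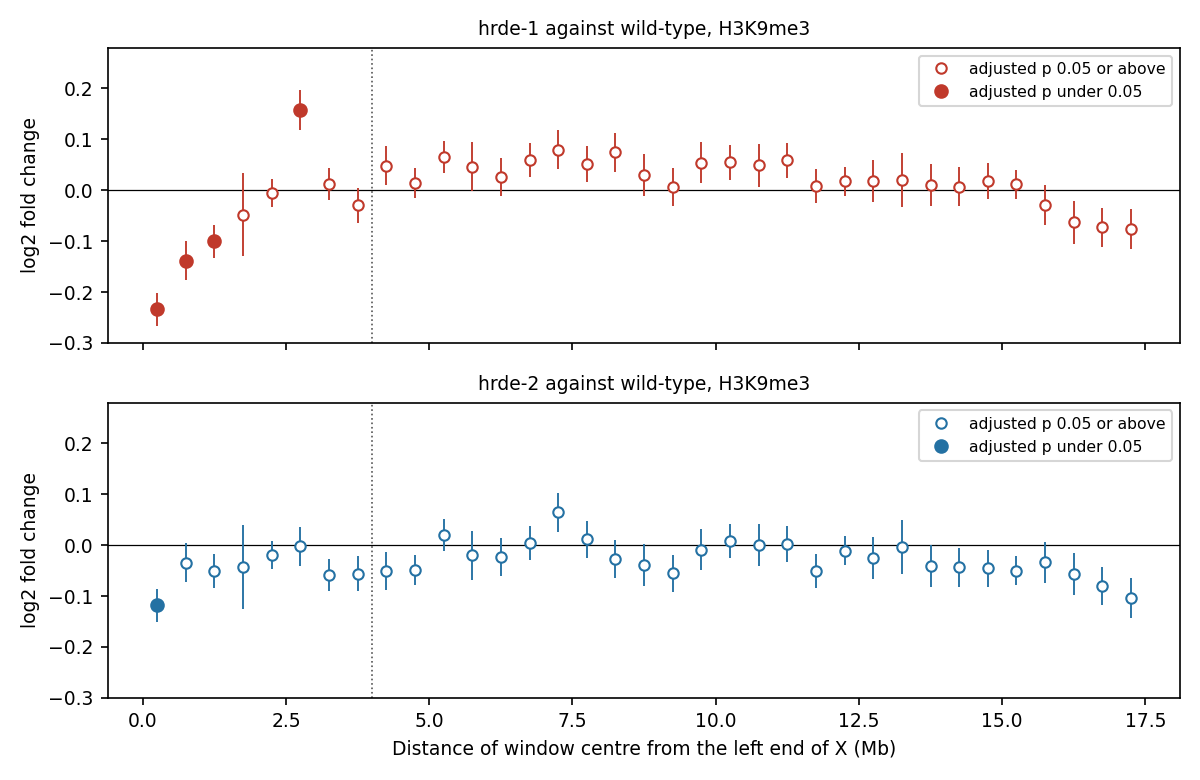
Log2 fold change of each 500 kb X window in hrde-1 and hrde-2 against wild-type (x axis, Mb; y axis, log2 fold change with its standard error; filled points have an adjusted p under 0.05). In hrde-1 the leftmost window lies at −0.23 and the window from 2.5 to 3 Mb at 0.16; in hrde-2 the leftmost lies at −0.12.

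Per gene, 4 of the 2140 X genes that passed the count filter rose in hrde-1 and none fell (edgeR, adjusted over 28691 genes), and DESeq2 gave the same counts. An unadjusted p under 0.05 was reached by 159 X genes. The background over all genes was 0.188% higher and 0.572% lower. X genes thus rose about as often as genes elsewhere, though at a single place, and fell less often. The 4 stood side by side in 15.665 kb, X 2933361 to 2949025, and no other of the 2157 genes was called. The median log2 fold change was −0.05 over the 463 tested left genes, of which 184 were above 0, and 0.02 over the 1677 in the rest, of which 909 were above 0, beside 0.01 over all genes. Without wild-type replicate 1 the count was 8, with 4 genes higher and 4 lower, and without wild-type replicate 3 it was 8, with 5 and 3.

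The first of the 4, fard-1, encodes a fatty acyl-CoA reductase that makes ether lipid precursors and lies at 2933361 to 2937740. It had 54.4, 52.7 and 32.5 CPM in wild-type, 90.9, 77.4 and 87.7 in hrde-1, and 48.9, 42.7 and 37.1 in hrde-2. All hrde-1 libraries were above all others (log2 fold change 0.92 ± 0.15 SE, edgeR adjusted p = 0.00035).

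Next to it, pfk-1.1, which encodes the glycolytic enzyme phosphofructokinase, lies at 2940872 to 2945481. It had 111, 80.8 and 84.3 CPM in wild-type, 191, 201 and 231 in hrde-1, and 110, 102 and 119 in hrde-2. It rose by 1.15 ± 0.12 in hrde-1 (edgeR adjusted p = 8.21e-08), while hrde-2 gave 0.23 ± 0.13 (adjusted p = 0.595) with overlapping libraries.

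Y41G9A.10, at 2945803 to 2946570, had 40.8, 34 and 42 CPM in wild-type, 82.8, 80.2 and 99.6 in hrde-1, and 39.7, 37.8 and 43.5 in hrde-2. Its log2 fold change in hrde-1 was 1.13 ± 0.14 (edgeR adjusted p = 1.50e-06). Y41G9A.5, at 2946667 to 2949025, had 47.8, 47.6 and 50.3 CPM in wild-type, 101, 97.6 and 102 in hrde-1, and 40.9, 48.3 and 47.5 in hrde-2, a log2 fold change of 1.04 ± 0.13. In each of these genes the hrde-1 libraries lay apart from the other 6. All 4 genes remained called in 10 of 10 other settings.

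Summed over the 4 genes, wild-type had 226 ± 24.4 CPM, hrde-1 481 ± 34.4 and hrde-2 239 ± 8.28 (SD, n = 3), a ratio of 2.13 for hrde-1 to wild-type. The IgG libraries had 252 CPM from 33 counts in wild-type (exact Poisson interval 174 to 354), 391 CPM from 10 counts in hrde-1 (187 to 719) and 99.8 CPM from 1 count in hrde-2. The IgG ratio of hrde-1 to wild-type was 1.55, with an exact interval of 0.681 to 3.22 for counting error, which includes both 1 and the H3K9me3 ratio, so whether the IgG signal moved with the H3K9me3 signal was not detectable at this depth.

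Of the 2157 genes, the neighbours on either side were not called. The nearest on the left, hst-3.2, which encodes a heparan sulfate sulfotransferase, ends 9.377 kb away and gave −0.52 ± 0.25 (edgeR adjusted p = 0.440). The nearest on the right, gbb-1, a GABA-B receptor subunit gene, starts 8.909 kb away and gave 0.04 (adjusted p = 0.952). Of 21 tested genes within 100 kb on either side, none was called. Outside the 2157 genes, the ncRNA gene Y41G9A.15, at 2950282 to 2950448 between Y41G9A.5 and gbb-1, overlaps none of the 4 and was called as well, at 1.06 ± 0.23 (edgeR adjusted p = 0.009). The window from 2.5 to 3 Mb, the single X window that rose in hrde-1, was at 30.7 ± 1.35 in wild-type and 34.7 ± 1.89 in hrde-1, and without the 4 genes it was at 31.0 ± 1.16 and 31.7 ± 1.61, so its log2 ratio went from 0.18 to 0.03.

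**Figure D5:**
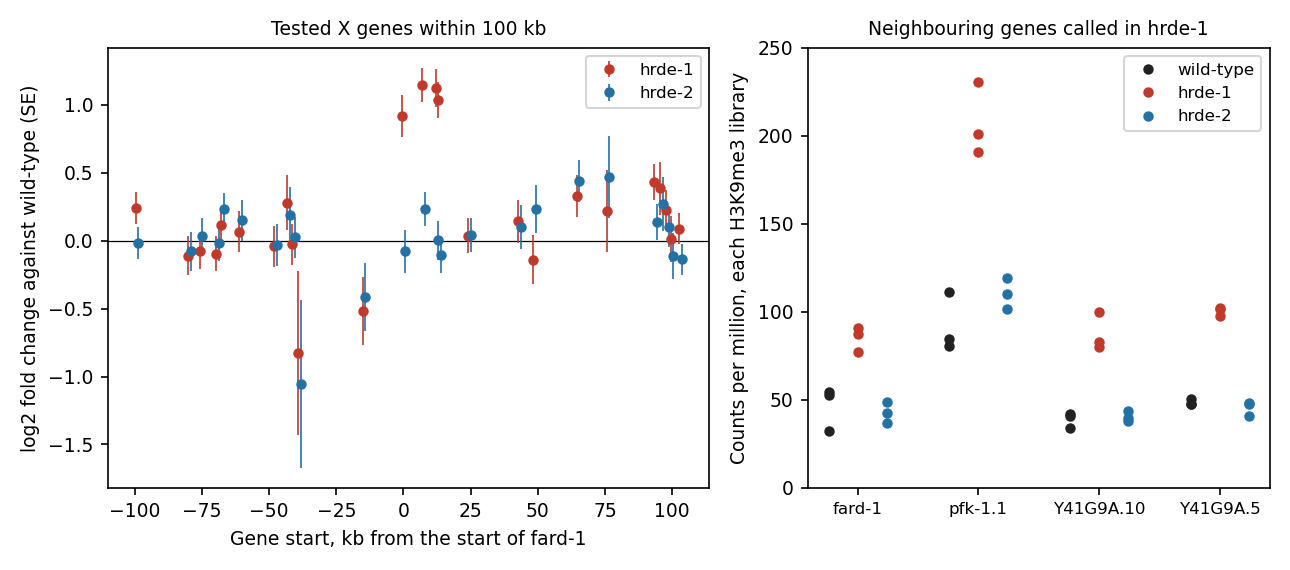
Left, log2 fold changes with standard errors of tested X genes against wild-type by distance from the start of fard-1 (x axis, kb), and right, CPM of the 4 genes in each H3K9me3 library. The 4 genes lie between 0.92 and 1.15 in hrde-1, and their neighbours hst-3.2 and gbb-1 lie at −0.52 and 0.04.

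In hrde-2, a single X gene passed, against a background of 0.185% higher and 0.31% lower over all genes, and 84 X genes had an unadjusted p under 0.05. The long noncoding RNA gene linc-154, at 2326744 to 2329092, had 66.3, 44.2 and 62.7 CPM in wild-type, 38.7, 40.7 and 34.9 in hrde-2 and 48.8, 39 and 41.4 in hrde-1. It fell by 0.66 on the log2 scale (SE 0.15, edgeR adjusted p = 0.0245), and the wild-type and hrde-2 libraries did not overlap. This call held in 4 of 10 other settings. The next smallest p-values belonged to linc-7 (−0.71 ± 0.18, edgeR adjusted p = 0.0640) and WBGene00020085 (−0.50 ± 0.13, adjusted p = 0.0783), neither of which passed. The median log2 fold change was −0.01 on the left and in the rest alike, beside 0.00 over all genes. By window, the leftmost fell by 0.12 (SE 0.03, edgeR adjusted p = 0.0404), and 28 of its 42 genes were below 0, with a median of −0.10. It was the single X window called, against a background of 4.04% lower and 8.59% higher, and the call was lost when any of 5 libraries was left out.

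Compared directly, hrde-2 and hrde-1 differed in 1 X gene higher and 5 lower in hrde-2, against a background of 0.209% higher and 0.234% lower, and 91 X genes reached an unadjusted p under 0.05. X genes were lower about as often as genes elsewhere. The 4 neighbours were lower in hrde-2, with log2 fold changes of −1.0 for fard-1, −0.92 for pfk-1.1, −1.12 for Y41G9A.10 and −1.14 for Y41G9A.5. This comparison shares the hrde-1 libraries with the one above.

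The gene that was higher in hrde-2 than in hrde-1 was rgs-8.1, a regulator of G protein signalling at 1943950 to 1945031. It had 26.0, 33 and 30.3 CPM in hrde-1, 49.1, 46.9 and 47.5 in hrde-2 and 40.0, 34 and 39.1 in wild-type, so the mutants lay on either side of wild-type. The difference was 0.67 ± 0.14 (edgeR adjusted p = 0.0120), and it was called in 5 of 10 other settings. The fifth lower gene, WBGene00020085, had 235.4, 171 and 177 CPM in hrde-1 and 131, 133 and 141 in hrde-2 (−0.53 ± 0.13, edgeR adjusted p = 0.0480), and it was called in 3 of 10. Without hrde-1 replicate 1, its highest library, the value was −0.36. By window none of the 35 X windows passed between the mutants (edgeR, 7 at an unadjusted p under 0.05; DESeq2 called 3), against a background of 1.01% higher and 0% lower.

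X genes on lists of small RNA targets were read against the backgrounds above, at which lists of this size hold few calls or none. Of 965 genes with HRDE-1-bound small RNAs in a mut-2 background, 107 were among the X genes (11.1% of the list, 4.96% of the X genes), and none of the 106 tested was called, the medians being −0.01 in hrde-1 and 0.02 in hrde-2 on the log2 scale. Of 590 such genes in mut-2; hrde-2 double mutants, 35 were on X by these limits, again with none called. Other target lists were not used here. Of the 186 genes listed with higher mRNA in hrde-1 mutants, 9 were X genes, and Y41G9A.10 alone was called. For the other 8 the log2 fold change in hrde-1 lay between −0.15 for F41G4.7 and 0.20 for spp-21, a saposin-like gene, with acly-1 at −0.05. The list of higher mRNA in hrde-2 held 7 X genes of 1063, and none was called. These lists were drawn up by the study from other libraries.

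Gene families that act mainly in neurons and other somatic cells gave no call in either mutant (edgeR), which at the backgrounds given above says nothing particular to lists this small. They were 37 neuropeptides and receptors with a median wild-type level of 28.8, 19 ion channel genes at 24.6, 20 F-box and MATH genes at 20.1, 12 transthyretin-like genes at 24.3, 9 nuclear hormone receptors at 17.9, 6 homeobox genes at 15.6, 4 UDP-glucuronosyl transferases, 3 C-type lectins and 2 chemoreceptors, while no collagen gene met the limits. Beside the median of 28.1 for all X genes, the nuclear hormone receptors and homeobox genes were low, as a description.

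Genes on any chromosome for factors that act on X or on H3K9, namely the MES proteins, HIM-8, the methyltransferases MET-2, SET-25 and SET-32, the X counting factors SEX-1, FOX-1 and CEH-39 and the sex-determination factors XOL-1, SDC-1 and SDC-2, did not pass in either mutant. Of 14 tested, 12 were above 0 in hrde-1 and 12 in hrde-2, beside 50.8% and 50.6% of all genes, with medians of 0.18 and 0.25 and smallest edgeR adjusted p-values of 0.271 and 0.163.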

How the data were processed

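The deposited values are raw counts per gene, which the authors made by mapping CUT&Tag reads to the WS258 genome with Bowtie2 2.5.0 and counting them over exons with featureCounts of Subread 2.0.1; other settings are not given in the sources used here. Counts were used as deposited. The X genes and gene lists were chosen with earlier results of these data known. Symbols came from Ensembl release 115 (2001 genes) and RefSeq (109), and 47 kept their ID. The reference build, WBcel235, matched WS258 in 84.6% of 23371 exons of these genes.

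Genes and 500 kb windows (198 in the genome) were tested with edgeR 4.0.16 (R 4.3.3) quasi-likelihood, TMM scaling and a minimum count of 10, over the 9 H3K9me3 libraries in one fit, with Benjamini-Hochberg adjustment and a threshold of 0.05; the scripts were tested on simulated data. H3K9me3 and IgG windows were compared over all 12 libraries with genotype as a term. Ratios within libraries were compared by exact two-sided permutation. Intervals and the floor of 3 counts (0.435 to 2.55 CPM in H3K9me3, 22.9 to 299 CPM in IgG libraries) cover counting error only. Named genes were all called X genes up to 12 in a comparison and direction (5 between the mutants), otherwise the 10 largest; where fewer than 3 passed, the 3 smallest p-values; the 4 highest levels on each side; and the gene with the most counts in the 2 highest and 2 lowest windows. DESeq2 1.42.0, other scalings, filters, windows, boundaries and each library left out were alternatives; the windows above 0 along X with each library left out were counted after seeing the data.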

Additional observations from a re-analysis of the deposited data

Results flagged for a closer look

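The difference between the 2 mutants, tested directly with edgeR, passed for 6 X genes. rgs-8.1 was higher in hrde-2 than in hrde-1 (log2 fold change 0.67). fard-1 (−1.0), pfk-1.1 (−0.92), Y41G9A.10 (−1.12) and Y41G9A.5 (−1.14), which are neighbours, were lower in hrde-2 than in hrde-1, and so was WBGene00020085 (−0.53).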

How the results depend on the processing

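The 4 neighbouring genes kept their direction and call in hrde-1 in all 10 other settings, and the fall of the leftmost window in hrde-1 did so as well. Leaving out a library gave log2 left-over-rest differences of −0.09 to −0.04 for hrde-1 and −0.0403 to 0.00266 for hrde-2, which turned sign without hrde-2 replicate 1 (0.000143) or wild-type replicate 3 (0.00266). X over autosome outer parts in hrde-2 ranged from −0.0112 to 0.0615 and turned sign without wild-type replicate 3 (−0.0112). The difference of H3K9me3 from IgG on the left was 0.11 without the 10 genes of most counts, with an exact p under 0.05 before adjustment. X genes called in hrde-1 were 8 with no count filter and 4 to 8 with a library left out; in hrde-2 they were 0 with total counts in place of TMM, 3 by DESeq2, 4 with no filter and 0 to 3 with a library left out; between the mutants 3 at an exon minimum of 1000 bases and 4 to 6. X windows called in hrde-1 were 2 with total counts, 2 with 1 Mb windows and 1 to 11; in hrde-2, 0 with total counts, 0 with the replicate block, 0 with 1 Mb windows, 2 by DESeq2, 2 with all genes and 0 to 1; between the mutants 3 by DESeq2, 1 at 250 kb, 1 at 1 Mb and 0 to 1; and over IgG 2 without the wild-type IgG library and 2 to 6, where the window at 16.5 Mb turned sign (−0.0736) within a range of −0.0736 to 0.404. Total counts in place of TMM, which in the gene fits include ribosomal RNA, shifted the median of all genes in hrde-2 by 0.10 on the log2 scale. Deviations of samples with the same replicate number correlated at −0.0486 to 0.1163, and those with different numbers at −0.1332 to 0.0625. The highest values, 0.1163 and 0.0983, joined wild-type and hrde-2 libraries of the same number. Whether the numbers pair samples is therefore not settled, and the main fits used no pairing. With the replicate block X genes called in hrde-1 were 6, the window from 1 to 1.5 Mb was lost (adjusted p = 0.0629) and no sign-flip test can fall below 0.25. The causes were not tested. IgG depth limits single genes to values above 22.9 CPM.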
